A study of Mus musculus with 6 samples.

Results

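Sialyl-, fucosyl-, galactosyl-, GlcNAc- and GalNAc-transferases are the enzymes that build the sugar chains of cell surface proteins and lipids, and their messenger RNA was examined in mouse splenic regulatory T cells (Tregs), a CD4 T cell lineage that holds immune responses in check. The members were all protein-coding genes whose symbol starts with St3gal, St6gal (St6galnac included), St8sia, B3gnt, B4galt, Gcnt, Galnt, or Fut and a digit, which gave 69 gene identifiers, with 68 symbols, of 55573 in the count files. No measured value enters that rule, but the family was proposed with genotype results of these libraries known, among them those of St6galnac1 and B3gnt7, so the counts of members below are a description and support nothing by themselves. RNA sequencing gave 3 libraries of wild-type cells and 3 of cells of genotype Nfkb2-/-, the latter labelled as knockouts of Nfkb2, which encodes the p100 precursor of the NF-kB subunit p52. Both groups came from the spleen of chimeric mice, made with bone marrow and described as bi-parental, in which donor marrow supplies the blood cells. The sorted cells, at a purity above 90%, rested in medium at 37°C for 2 h before lysis. No treatment was given. The labels used here give no strain, age, donor sex, host or number of pooled animals. They call the 3 libraries of a genotype biological repeats and do not say that each came from its own animal, so p-values measure the spread between these libraries, which may in part be technical.

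Sugar chains are assembled in the Golgi one sugar at a time. Polypeptide GalNAc-transferases (Galnt genes) start O-glycans on serine and threonine, Gcnt enzymes branch them, B3gnt and B4galt enzymes extend O-glycans, N-glycans and glycolipids with alternating GlcNAc and galactose, and sialyltransferases (St3gal, St6gal, St6galnac and St8sia genes) and fucosyltransferases (Fut genes) add the ends that lectins read. In T cells these ends set the binding of selectins, galectins and Siglecs, and sialic acid and core 2 branches are known to change as T cells become activated.

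Library totals ran from 12005273 to 17278521 counts. Levels are given as CPM, the count divided by the TMM-scaled size of its library, and, where genes are compared with each other, as TPM, the count per exon length scaled to the same total in every library. Nfkb2 itself was at 269 to 324 CPM in the Nfkb2-/- libraries and at 545 to 558 CPM in wild type, lower but not absent; counts per gene cannot show single exons. Foxp3, the defining transcription factor of Tregs, was at 448 to 576 CPM in Nfkb2-/- and at 407 to 622 CPM in wild type, and the 7 Treg markers summed to 4036 to 4478 and 3236 to 4907 CPM, so both groups carried the labelled identity. Of all libraries, replicate 1 of wild type was the least like the rest: chi-square per degree of freedom against wild-type replicates 2 and 3 was 70.4 and 106, against 5.82 to 17.6 for the other pairs within a genotype. It was also the highest of 6 libraries in 34.2% of all tested genes and in 15 of the 43 tested members. The 19 B cell markers summed to 546 to 619 CPM in Nfkb2-/- and to 402, 1184 and 1079 CPM in wild-type replicates 1, 2 and 3, 4 plasma cell markers to 12.2 to 20.1 and 16.8 to 90.6 CPM, 2 CD8 markers to 10.4 to 13.7 and 13.3 to 22.7 CPM, 9 myeloid markers to 15.8 to 38.5 and 13.2 to 63.7 CPM, 4 NK markers to 0.993 to 1.47 and 0.504 to 1.90 CPM, and 4 erythroid markers to 21.7 to 37.9 and 30.8 to 56.2 CPM. The 4 dendritic cell markers summed to 87.9 to 126 CPM in Nfkb2-/- and 21.7 to 52.1 CPM in wild type, a difference carried by Zbtb46 (mean 102 against 27.8 CPM), while Flt3, Xcr1 and Siglech had lower means in Nfkb2-/-. No marker of these lists was at 0 in all libraries. Xist was at 592 to 883 CPM in Nfkb2-/- and 1.94 to 16.5 CPM in wild type, and 4 Y-linked genes summed to 40.0, 138 and 275 CPM against 465 to 498 CPM, so donor sex and genotype cannot be told apart in any value below.

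Of the 69 identifiers, 43 passed the count filter and were tested, 8 had no count in any library and 18 had some. Of the tested members, 35 were above the filter's level of 0.791 CPM in all 6 libraries. St6galnac1, St6galnac2, Galnt14 and Fut10 reached it in all 3 Nfkb2-/- libraries but not in all wild-type libraries, and B3gnt7 and B3gnt9 in all wild-type libraries only, so these genes passed through the group where they were higher. Counts were compared with the edgeR quasi-likelihood test over all 13347 tested genes, with Benjamini-Hochberg adjustment over all of them; a gene is said to have risen or fallen in Nfkb2-/- where the adjusted p was under 0.05.

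Among the members, 2 rose in Nfkb2-/- Tregs (St6galnac1 and St6galnac2, both enzymes that attach sialic acid to O-linked GalNAc) and 1 fell (B3gnt7, an enzyme that extends chains with GlcNAc). Over all genes tested, 1.01% rose and 0.405% fell. The median log2 fold change was -0.074 over the tested members and -0.035 over all tested genes. At an unadjusted p under 0.05 there were 14 of the 43, against 13.6% of all tested genes. Of the members, 27 of 43 lay within 0.5 of 0 on that scale and 7 lay beyond a 2-fold difference. In these sorted bulk samples, fewer cells that express a gene and less RNA per cell cannot be told apart.

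**Figure D1:**
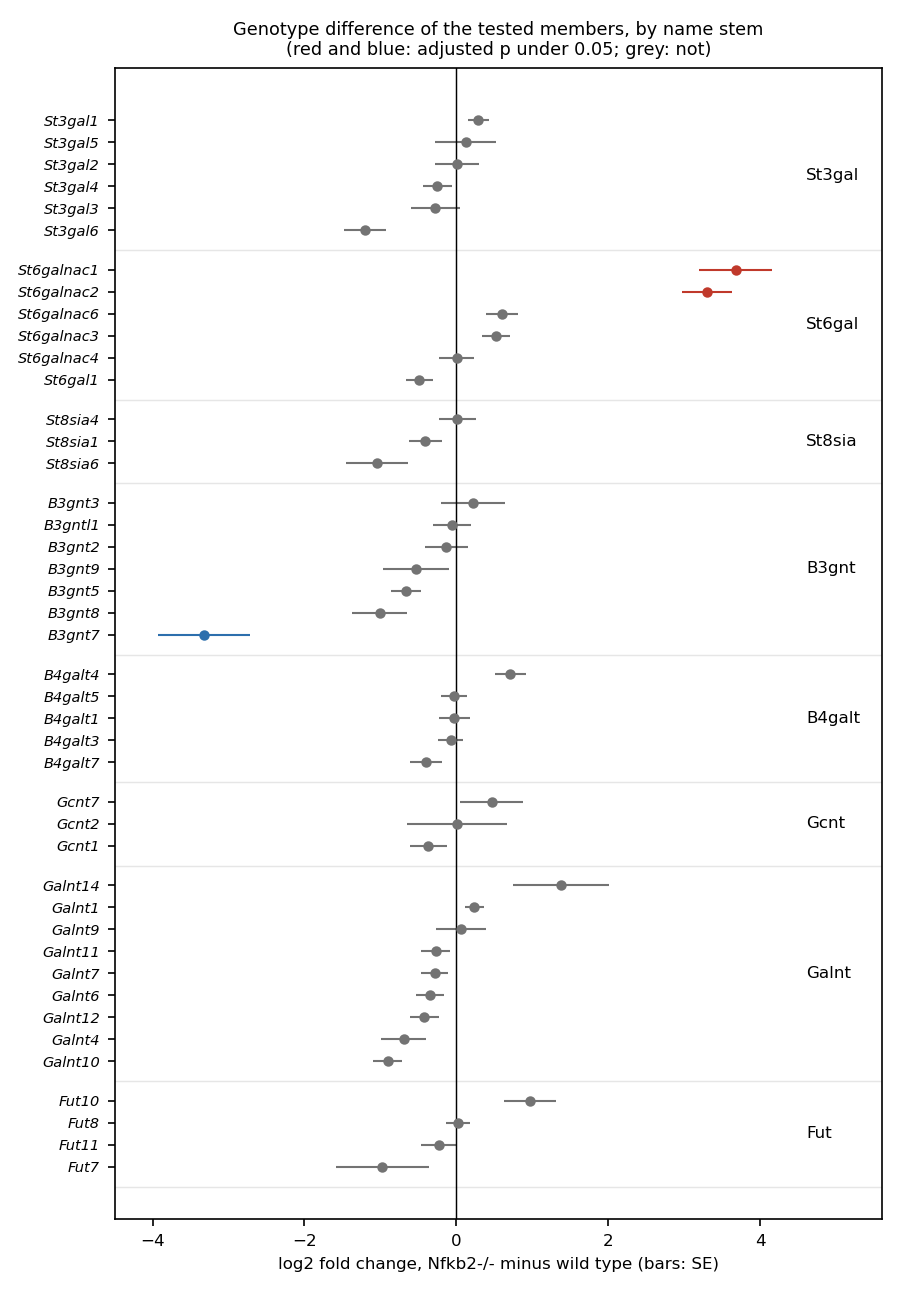
Log2 fold change (x axis, Nfkb2-/- minus wild type, bars are SE) of the 43 tested members, in rows by gene and grouped by name stem. St6galnac1 (3.67) and St6galnac2 (3.30) lie to the far right and B3gnt7 (-3.33) to the far left, while 27 members lie within 0.5 of 0.

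St6galnac1 makes the sialyl-Tn antigen, sialic acid on the first GalNAc of an O-glycan, which stops the chain from growing. Its level was 10.6, 9.43 and 10.0 CPM in Nfkb2-/- replicates 1 to 3 and 1.19, 0.870 and 0.168 CPM in wild-type replicates 1 to 3, from 128, 134 and 123 counts against 22, 11 and 2. The Nfkb2-/- libraries lay close together and all above the highest wild-type library, while wild type spread over several-fold. The means were 10.0 ± 0.579 and 0.742 ± 0.521 CPM (SD, n = 3 each), and the log2 fold change was 3.67 (SE 0.478, edgeR adjusted p = 0.0157), a fitted 12.8-fold difference. Without wild-type replicate 1 the log2 fold change was 4.22, and without wild-type replicate 2, which ended the call, it was 3.75 (edgeR adjusted p = 0.0559).

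St6galnac2, which adds sialic acid to the GalNAc of O-glycans that already carry galactose, moved in the same direction. The Nfkb2-/- libraries held 6.95, 6.62 and 9.77 CPM, and the wild-type libraries 0.593, 0.791 and 1.01 CPM. Both genotypes were tight and far apart. The means were 7.78 ± 1.73 and 0.797 ± 0.207 CPM (SD, n = 3 each), and the log2 fold change was 3.30 (SE 0.330, edgeR adjusted p = 0.00807), a fitted 9.82-fold difference. A second identifier named St6galnac2 overlaps this gene on the same strand and was too low to test, with 13 counts in Nfkb2-/- and 0 in wild type. With wild type set at 3 counts over its libraries, the ratio was 4.84, which takes the 13 counts of Nfkb2-/- as exact. The 2 identifiers share 383 bases of exon, whose reads cannot be assigned to one of them. St6galnac2 also shares exon bases with the noncoding gene 1810032O08Rik on the other strand, which the unstranded libraries cannot separate; 1810032O08Rik had a log2 fold change of 0.15. For both genes, no call remained without any one of the Nfkb2-/- libraries (edgeR adjusted p from 0.0547 to 0.118) or with a covariate for the Y-linked level (adjusted p = 0.333 for St6galnac1 and 0.149 for St6galnac2), although the log2 fold changes stayed between 3.09 and 3.73 in those fits. Few genes of any kind were called there: 0.109%, 0.0509% and 0.087% without Nfkb2-/- replicates 1, 2 and 3, and 0.0524% with the Y-linked covariate.

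These 2 genes are neighbours, and the genes between them rose as well. St6galnac1 (ENSMUSG00000009588) lies on chromosome 11 at 116765025 to 116775507 and St6galnac2 (ENSMUSG00000057286) at 116675303 to 116694868 (GRCm38, both on the minus strand), 70.2 kb apart. The window of 200 kb on either side was taken up after the values of both genes had been seen. In it, 12 of 26 annotated genes were tested, of which 4 rose and 1 fell, where 1.01% and 0.405% of all tested genes did. The 4 that rose were the 4 tested genes wholly within the 100.2 kb from the end of St6galnac2 to the start of St6galnac1. The called genes St6galnac1 and St6galnac2 set the limits of this stretch, so they lie in it by definition. At the St6galnac2 end 1810032O08Rik, tested and not called, reaches into the stretch. BC018473, annotated as an antisense noncoding gene at 116752167 to 116759373, was at 29.8, 20.1 and 25.9 CPM in Nfkb2-/- and 0.647, 1.74 and 0.336 CPM in wild type, and its log2 fold change was 4.80 (SE 0.465, edgeR adjusted p = 0.00784). Gm11735, an unprocessed pseudogene at 116739062 to 116749833, had 32, 35 and 29 counts in Nfkb2-/- and 0, 0 and 1 in wild type, a ratio of 107 (95% counting interval 18.8 to 4279). Its fitted log2 fold change was 6.26 (SE 0.681, edgeR adjusted p = 0.00916). Gm11735 was below the filter's level of 0.791 CPM in every wild-type library, and BC018473 in wild-type replicates 1 and 3. Both therefore passed through the group where they were higher. Outside the stretch the picture differed gene by gene. Cygb, a globin gene beyond St6galnac2 with too few counts to test, had 28 counts against 2, a ratio of 15.6 (3.94 to 135), and Mettl23, a methyltransferase gene on the other side of St6galnac1 that shares exon bases with Jmjd6, Srsf2 and Mfsd11, fell, with mean CPM of 22.9 ± 0.954 in the knockout and 42.9 ± 4.83 in wild type (SD, n = 3 each), by 0.90 on the log2 scale (edgeR adjusted p = 0.0268). Jmjd6, Srsf2, Ube2o, Rhbdf2 and Prpsap1 had log2 fold changes of 0.054, -0.21, 0.12, -0.24 and -0.21, and Mfsd11 of -0.72. The 4 genes of the stretch all kept a positive log2 fold change without each library in turn, at 3.09 or more, but 0 of the 4 passed the edgeR threshold without Nfkb2-/- replicate 1, 2 or 3 or with the Y-linked covariate, and 3 of 4 without wild-type replicate 2. For BC018473 the edgeR adjusted p was 0.0559 to 0.0656 without an Nfkb2-/- library and 0.211 with the Y-linked covariate. Mettl23 lost its call without each library other than wild-type replicate 1 (edgeR adjusted p from 0.0734 to 0.196) and with the Y-linked covariate (0.499).

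**Figure D2:**
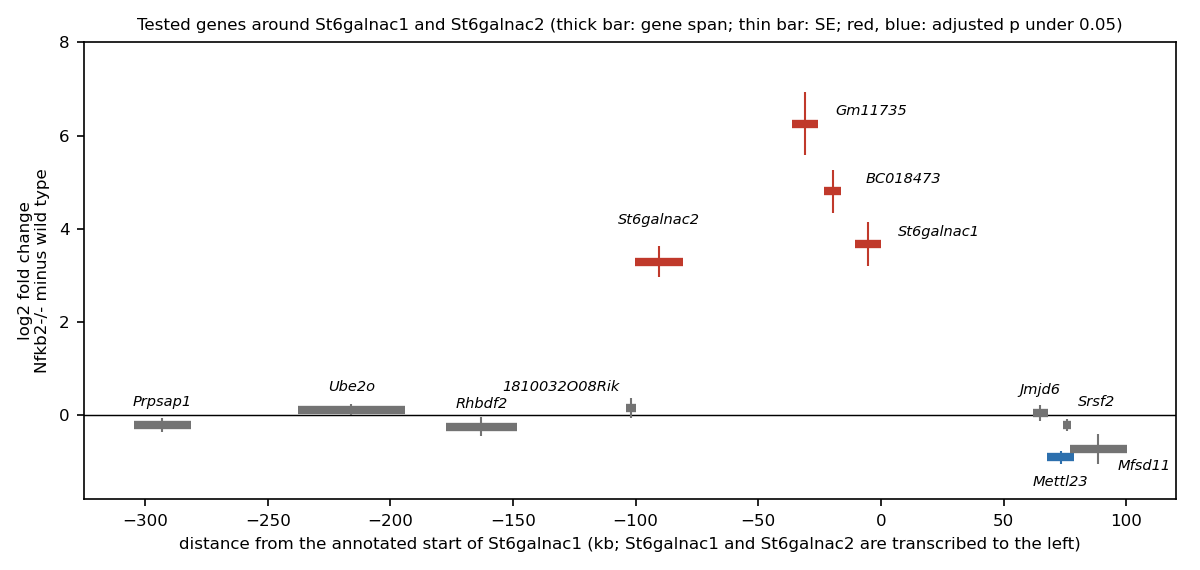
Log2 fold change (y axis, Nfkb2-/- minus wild type, thin bars are SE) of the 12 tested genes against distance in kb from the annotated start of St6galnac1 (x axis), with gene spans as thick bars. St6galnac2, Gm11735, BC018473 and St6galnac1 lie at 3.30 or higher, and the other 8 genes lie between -0.90 and 0.15; the fitted value of Gm11735 rests on 1 wild-type count.

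Reads of St6galnac1 and Gm11735 may not be fully separable. Of the 2343 stretches of 50 bases in the annotated St6galnac1 transcripts, 818 (34.9%) also occur in Gm11735, and none in St6galnac2 or BC018473. Added together, St6galnac1 and Gm11735 were at 13.2, 11.9 and 12.4 CPM in Nfkb2-/- and at 1.19, 0.870 and 0.252 CPM in wild type, a ratio of means of 16.2. The difference was therefore as large with both genes taken as one.

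The other sialyltransferases of the α2,6 group differed less. St6gal1, which caps N-glycans and makes the ligand of CD22, was the most abundant of them per length, at 114 ± 24.1 TPM in wild type and 82.6 ± 18.7 TPM in Nfkb2-/- (SD, n = 3 each). In CPM it was at 146, 97.1 and 113 in Nfkb2-/- and 186, 139 and 174 in wild type, groups that overlap, with a log2 fold change of -0.49 (edgeR adjusted p = 0.291, SE 0.182). St6galnac6 and St6galnac3, which sialylate gangliosides and, for St6galnac3, also O-glycans, had log2 fold changes of 0.60 and 0.52 with no overlap between genotypes (edgeR adjusted p = 0.251 and 0.276). St6galnac3 passed without wild-type replicate 1 (edgeR adjusted p = 0.0175, log2 fold change 0.69). St6galnac4, which lies directly beside St6galnac6 on chromosome 2, had a log2 fold change of 0.0034 (SE 0.229), and the difference between these neighbours was not tested. St6galnac5 had 20 counts over all libraries and St6gal2 had 0.

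Summed per length over all 9 St6gal and St6galnac identifiers, the level was 134 ± 19.0 TPM in Nfkb2-/- and 143 ± 21.6 TPM in wild type (SD, n = 3 each), a difference smaller than either SD. Within that sum St6galnac1 moved from 1.10 ± 0.835 TPM to 14.3 ± 1.02 TPM and St6galnac2 from 0.456 ± 0.0664 to 4.57 ± 0.889 TPM. In wild type both were the lowest of the 6 tested genes of the group. In Nfkb2-/- St6galnac1 was above St6galnac3 and St6galnac6, at 6.30 ± 0.447 and 6.14 ± 0.612 TPM, and below St6galnac4, at 19.6 ± 1.12 TPM.

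**Figure D3:**
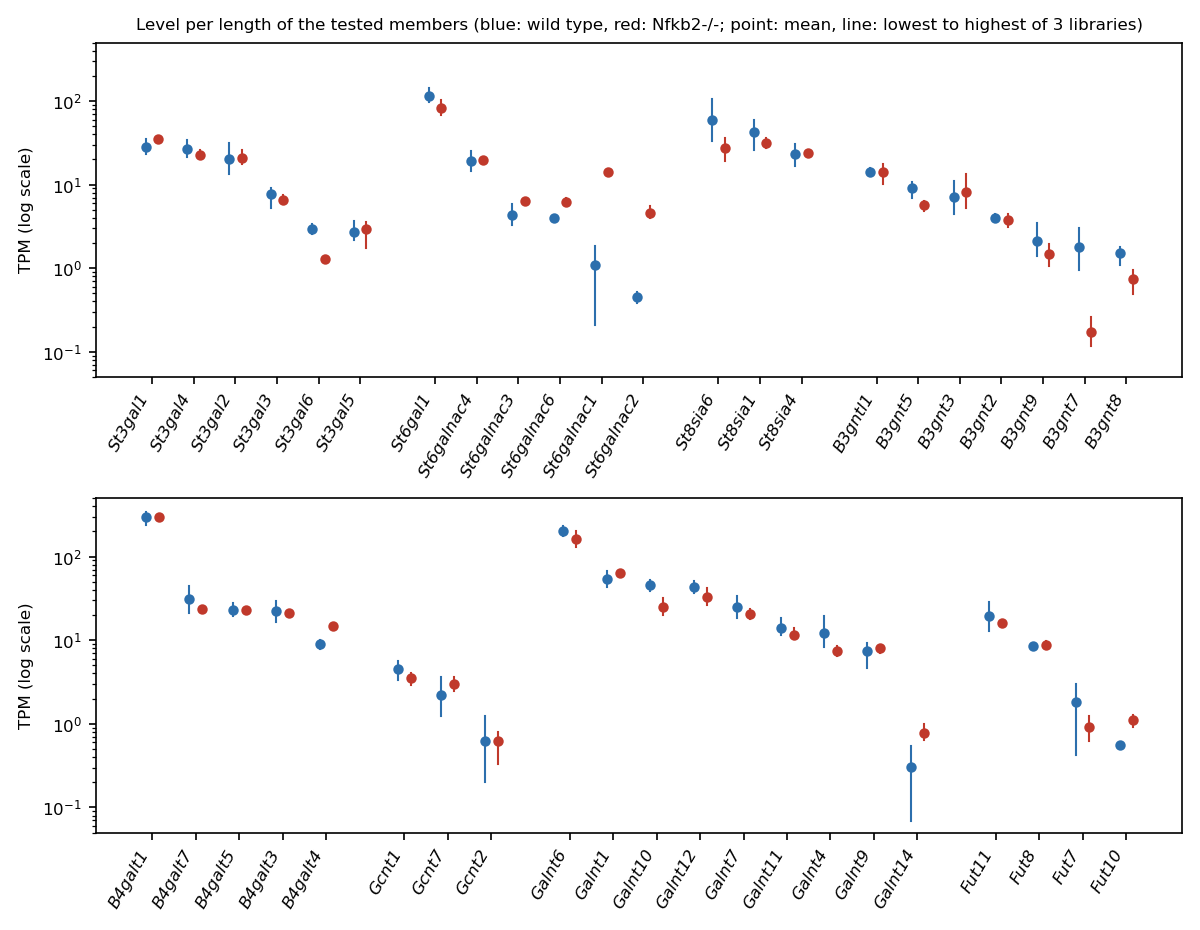
Level per length in TPM (log axis) of the tested members, ordered within each name stem by the wild-type mean, with points as means and lines from the lowest to the highest of 3 libraries for wild type (blue) and Nfkb2-/- (red). St6galnac1 and St6galnac2 lie near 1 TPM or below in wild type and at 14.3 and 4.57 TPM in Nfkb2-/-, while B4galt1, near 295 TPM in both, and most others overlap.

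The α2,3 and α2,8 sialyltransferases gave no called member among 9 tested with edgeR or limma-voom and 1, St3gal6, with DESeq2. St3gal6 and St8sia6 had an unadjusted edgeR p under 0.05. Of all genes tested by each tool, edgeR called 1.42%, limma-voom 1.47% and DESeq2 3.94%. An unadjusted edgeR p under 0.05 was found in 13.6% of all tested genes. Among the α2,3 enzymes, St3gal1 caps core 1 O-glycans of T cells and was the highest per length, at 28.3 ± 6.30 TPM in wild type and 34.7 ± 2.47 TPM in Nfkb2-/-; with the longest transcript in place of the union of exons, St3gal4 stood first. Its log2 fold change was 0.29 (edgeR adjusted p = 0.415), and that of St3gal4, which serves selectin ligands, was -0.25 (edgeR adjusted p = 0.650). St3gal6, another enzyme of sialyl-Lewis x synthesis, was at 2.23, 2.18 and 2.61 CPM in Nfkb2-/- and 4.21, 6.17 and 5.88 CPM in wild type. The groups did not overlap, and the log2 fold change was -1.20 (SE 0.275, edgeR adjusted p = 0.0903); it was -1.36 (adjusted p = 0.00568) without wild-type replicate 1, and 26.0% of its exon bases overlap Dcbld2 on the other strand.

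Of the α2,8 enzymes, St8sia6, which adds a second sialic acid to O-glycans, had the highest wild-type mean per length. The Nfkb2-/- libraries were at 78.8, 42.7 and 64.0 CPM and the wild-type libraries at 217, 79.3 and 86.3 CPM. Replicate 1 of wild type was far above the rest, and the lowest wild-type library was just above the highest Nfkb2-/- library. The log2 fold change was -1.05 (SE 0.407, edgeR adjusted p = 0.313) and -0.42 without wild-type replicate 1. St8sia1, the GD3 ganglioside synthase, had a log2 fold change of -0.41 (edgeR adjusted p = 0.478) with overlapping groups. St8sia4, a polysialyltransferase, was at 89.7 to 180 CPM in wild type and 123 to 151 CPM in Nfkb2-/-, with a log2 fold change of 0.013 that turned to -0.22 without wild-type replicate 1. St8sia2, St8sia3 and St8sia5 had no count in any library.

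Of the chain-extending B3gnt enzymes, 6 of 7 tested had a negative log2 fold change, as 55% of all tested genes did, and 1 fell, as 0.405% of all tested genes did. B3gnt7, which adds GlcNAc to galactose in poly-N-acetyllactosamine and keratan sulfate chains, was at 0.165, 0.141 and 0.326 CPM in Nfkb2-/- and 1.56, 3.64 and 1.34 CPM in wild type. These levels rest on 2, 2 and 4 counts against 29, 46 and 16. All wild-type libraries were above all Nfkb2-/- libraries. The means were 0.211 ± 0.10 and 2.18 ± 1.27 CPM (SD, n = 3 each), and the log2 fold change was -3.33 (SE 0.602, edgeR adjusted p = 0.0467). That call, close to the threshold, was lost with the replicate block (edgeR adjusted p = 0.0514), in limma-voom (0.0637), with the Y-linked covariate (0.730) and without each library other than wild-type replicate 1 (0.0693 to 0.269), with log2 fold changes from -3.76 to -2.58. B cell markers moved with it in part: Cd79a, a B cell receptor chain, fell as well, with a mean of 5.33 CPM in Nfkb2-/- against 34.7 CPM in wild type, and the B cell marker sum and B3gnt7 were both highest in wild-type replicate 2. The log2 fold change of B3gnt7 in the fit with a B cell marker covariate was -3.08 (edgeR adjusted p = 0.00208).

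B3gnt7 (ENSMUSG00000079445) lies on chromosome 1 at 86302832 to 86307305 (GRCm38, plus strand), where 520 bases of its exons overlap Gm28626. B3gnt8, which extends branched N-glycans, was at 0.910, 1.48 and 1.87 CPM in Nfkb2-/- and 2.86, 3.40 and 2.35 CPM in wild type, and its log2 fold change was -1.01 (SE 0.359, edgeR adjusted p = 0.265). B3gnt5, which starts lacto-series glycolipids, was at 9.52, 7.25 and 9.45 CPM against 15.0, 14.2 and 12.3 CPM, and its log2 fold change was -0.66 (SE 0.194, edgeR adjusted p = 0.171). In both genes all wild-type libraries were above all Nfkb2-/- libraries, and neither passed the test. B3gntl1, named for its sequence likeness, was the highest per length of the stem at 14.3 ± 1.54 TPM in wild type and 14.1 ± 3.75 TPM in Nfkb2-/- (log2 fold change -0.061). B3gnt2 and B3gnt3 had log2 fold changes of -0.13 and 0.21, B3gnt4 had no count and B3gnt6 had 7.

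Promoter sequences, from 250 bases before to 50 after the annotated start, were read from RefSeq (GRCm38.p6), where 49 of the 68 member symbols had an entry; St6galnac1 and St6galnac2 had none. Since Nfkb2 encodes an NF-kB subunit, they were searched on both strands for the loose NF-kB form, which is GGG, any 5 bases and CC, and for the stricter consensus kappaB site, a subset of it. The loose form was present in 50.8% of all 32851 promoters and in 34 of 48 promoters of tested members, and the stricter one in 8.46% and in 4 of 48, those of St3gal6, B3gnt8, Galnt7 and B4galt7. The log2 fold changes of these 4 genes were -1.20, -1.01, -0.29 and -0.40, none of them called. Printed here are the promoter of the member that fell and those of the 2 members with the stricter form that had no overlap between genotypes, chosen after their values were seen; capitals mark matches to the loose form on either strand.

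B3gnt7 (chr1:86302971-86303270, plus strand): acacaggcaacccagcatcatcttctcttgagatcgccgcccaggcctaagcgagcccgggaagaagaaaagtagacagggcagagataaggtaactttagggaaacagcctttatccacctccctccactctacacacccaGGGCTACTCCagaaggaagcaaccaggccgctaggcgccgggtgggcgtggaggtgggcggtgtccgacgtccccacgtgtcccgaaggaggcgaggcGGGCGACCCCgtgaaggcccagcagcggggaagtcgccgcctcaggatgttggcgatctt
St3gal6 (chr16:58523377-58523676, minus strand, 1 of its 2 annotated starts): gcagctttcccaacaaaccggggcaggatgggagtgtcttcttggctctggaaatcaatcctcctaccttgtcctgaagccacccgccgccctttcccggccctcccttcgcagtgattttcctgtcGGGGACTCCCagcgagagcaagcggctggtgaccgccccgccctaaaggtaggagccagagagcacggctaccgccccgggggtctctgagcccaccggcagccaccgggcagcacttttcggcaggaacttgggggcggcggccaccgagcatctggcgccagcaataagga
B3gnt8 (chr7:25627374-25627673, plus strand): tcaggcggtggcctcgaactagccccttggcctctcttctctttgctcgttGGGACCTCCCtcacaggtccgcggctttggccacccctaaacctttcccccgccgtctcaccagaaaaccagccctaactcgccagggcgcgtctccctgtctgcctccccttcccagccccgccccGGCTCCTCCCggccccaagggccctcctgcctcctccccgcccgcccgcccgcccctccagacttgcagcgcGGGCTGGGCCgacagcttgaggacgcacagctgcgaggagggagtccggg

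In St3gal6 the match GGGGACTCCC begins at position -123 from the annotated start and reads as the loose form on both strands. So does GGGACCTCCC, at -199 in B3gnt8. The 2 places in B3gnt7, GGGCTACTCC at -108 and GGGCGACCCC at -10, do not have the stricter form. A match is a run of letters and not evidence of binding.

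None of 5 tested galactosyltransferases of the B4galt stem was called by edgeR, DESeq2 or limma-voom. These tools called 1.42%, 3.94% and 1.47% of all genes they tested. Of the 5, 1, B4galt4, had an unadjusted edgeR p under 0.05, as 13.6% of all tested genes did. B4galt1, the main enzyme of N-acetyllactosamine synthesis, was the most abundant member in all, at 295 ± 51.3 TPM in wild type and 296 ± 23.7 TPM in Nfkb2-/- (SD, n = 3 each), with a log2 fold change of -0.029 (edgeR adjusted p = 0.969, SE 0.202). Its log2 fold change was -0.22 without wild-type replicate 1, the lowest library, so no direction can be given. B4galt4 was at 13.5, 13.6 and 15.2 CPM in Nfkb2-/- and 6.63, 9.42 and 9.91 CPM in wild type. Every Nfkb2-/- library was above every wild-type library, but the log2 fold change of 0.71 (SE 0.208) did not pass (edgeR adjusted p = 0.172). B4galt3 and B4galt5 had log2 fold changes of -0.074 and -0.027, and B4galt7, which builds the linker of proteoglycans, -0.40 (edgeR adjusted p = 0.460). B4galt6, a lactosylceramide synthase too low to be tested, had 6, 14 and 11 counts in Nfkb2-/- and 0, 3 and 0 in wild type, a ratio of 11.5 (95% counting interval 3.60 to 59.0), and it passed only in the edgeR fit without a count filter.

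Genes that start and branch O-glycans gave no called member among 12 tested with edgeR or limma-voom and 1, Galnt10, with DESeq2. Galnt10 and Galnt4 had an unadjusted edgeR p under 0.05, as 13.6% of all tested genes did. Of all genes tested by each tool, edgeR called 1.42%, limma-voom 1.47% and DESeq2 3.94%. Galnt6 was the most abundant of the GalNAc-transferases, at 202 ± 28.6 TPM in wild type and 161 ± 38.6 TPM in Nfkb2-/- (log2 fold change -0.35, edgeR adjusted p = 0.469). Galnt10, which prefers peptides that already carry GalNAc, was at 53.8, 34.8 and 43.2 CPM in Nfkb2-/- and 83.1, 68.4 and 95.2 CPM in wild type. All wild-type libraries were above all Nfkb2-/- libraries. The log2 fold change was -0.91 (SE 0.195, edgeR adjusted p = 0.0765), and it passed with the replicate block (adjusted p = 0.0400), without wild-type replicate 1 (0.0219) and in DESeq2 (0.00380). Galnt10 also passed in the edgeR fits with no count filter and with the B cell marker covariate, which called 1.72% and 25% of all genes tested. Galnt4, of the same preference, and Galnt12 had log2 fold changes of -0.69 and -0.42 (edgeR adjusted p = 0.365 and 0.383), also without overlap, though Galnt4 was at -0.29 without wild-type replicate 1. Galnt14, at 1.08, 1.69 and 1.30 CPM in Nfkb2-/- against 0.108, 0.949 and 0.588 CPM in wild type, had a log2 fold change of 1.38 (edgeR adjusted p = 0.401, SE 0.635). Summed per length, the 19 Galnt identifiers were at 332 ± 60.6 TPM in Nfkb2-/- and 405 ± 65.4 TPM in wild type (SD, n = 3 each), with overlapping libraries. Gcnt1, the core 2 enzyme of selectin ligand synthesis, was at 4.93 to 6.70 CPM in Nfkb2-/- and 6.47 to 9.42 CPM in wild type (log2 fold change -0.37, edgeR adjusted p = 0.587). Gcnt7 and Gcnt2, the latter of I-branching, had log2 fold changes of 0.47 and 0.010.

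Fucosyltransferases summed per length to 27.3 ± 2.16 TPM in Nfkb2-/- and 30.5 ± 9.94 TPM in wild type (SD, n = 3 each). The Gcnt stem was lower, at 7.32 and 7.39 TPM, and the B3gnt stem was at 34.3 and 39.9 TPM. None of 4 tested Fut genes passed by edgeR, DESeq2 or limma-voom, which called 1.42%, 3.94% and 1.47% of all genes they tested. Fut10 had an unadjusted edgeR p under 0.05, as 13.6% of all tested genes did. Fut11 was the highest per length, at 19.2 ± 8.6 TPM in wild type and 16.2 ± 1.51 TPM in Nfkb2-/- (log2 fold change -0.23, or 0.081 without wild-type replicate 1). Fut8, which adds the core fucose of N-glycans, was at 0.016 on that scale. Fut7, the last enzyme of sialyl-Lewis x in T cells, was close to the limit of detection, with 10, 6 and 8 counts in Nfkb2-/- and 35, 18 and 4 in wild type. Its groups overlapped, and its log2 fold change was -0.98 (SE 0.612, edgeR adjusted p = 0.565). Fut10 was at 1.32, 1.83 and 1.71 CPM in Nfkb2-/- and 0.701, 0.870 and 0.924 CPM in wild type, higher in each Nfkb2-/- library but not called (log2 fold change 0.97, SE 0.341, edgeR adjusted p = 0.257). Fut9 had no count, and Fut1, Fut2 and Fut4 had 6, 4 and 26 counts over all libraries.

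Across the family, CPM values did not overlap between genotypes in 15 of 43 tested members, 7 higher and 8 lower in Nfkb2-/-, against 20.6% of all tested genes (10.7% higher, 9.9% lower). The 3 called genes are at the ends of this set, and the other 12 differed by less, between -1.20 and 1.38 on the log2 scale.

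**Figure D4:**
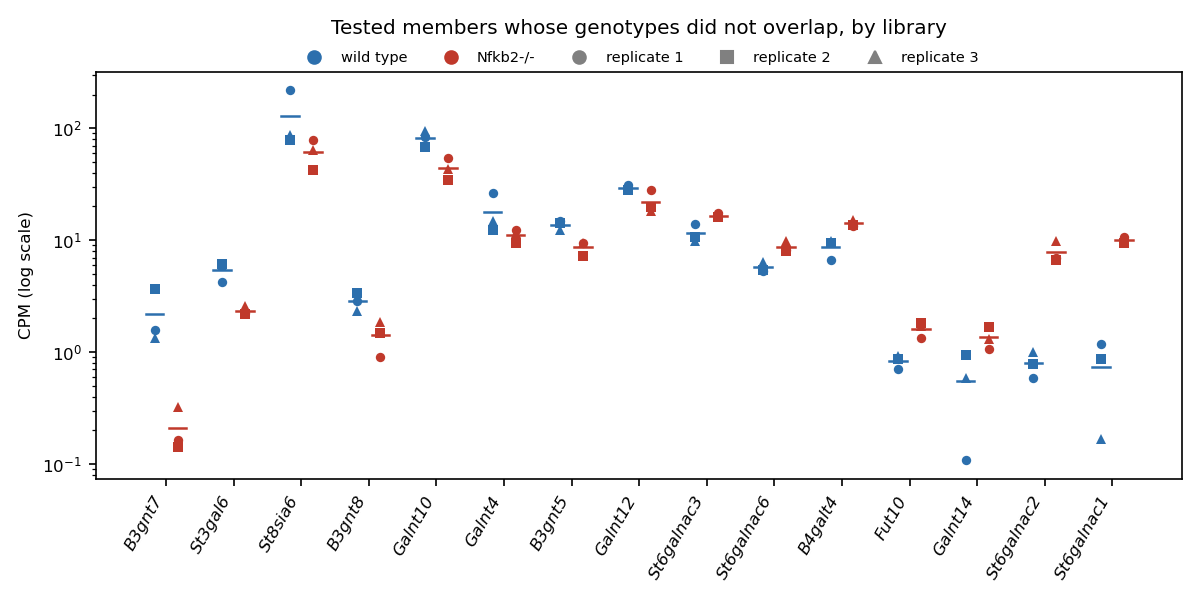
CPM per library (log axis; symbols mark replicates, bars the mean of 3) of the 15 tested members whose genotypes did not overlap, ordered by log2 fold change, wild type in blue and Nfkb2-/- in red. St6galnac1 in Nfkb2-/- lies at 9.43 to 10.6 CPM against 0.168 to 1.19 CPM in wild type, and St8sia6 shows wild-type replicate 1 at 217 CPM above the other libraries.

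The genes that supply, trim and read these glycans were taken as 7 lists with 96 tested genes, of which 2 rose and 1 fell; the median log2 fold change was -0.095, with 39 (of 96) above 0. Over all tested genes 1.01% rose and 0.405% fell, the median was -0.035 and 45% lay above 0. Among 28 genes of nucleotide sugar supply, Uap1, which makes UDP-GlcNAc, rose from 46.6, 62.0 and 68.6 CPM in wild type to 111, 127 and 155 CPM in Nfkb2-/- (log2 fold change 1.15, SE 0.187, edgeR adjusted p = 0.0315). Slc35d1, a Golgi and endoplasmic reticulum transporter of UDP-sugars, fell from 146, 158 and 164 CPM to 93.3, 100.4 and 106 CPM (log2 fold change -0.64, SE 0.114, edgeR adjusted p = 0.0408). Among 11 other galactosyl, GalNAc and glycolipid genes, Ggta1, the α1,3-galactosyltransferase of the alpha-Gal epitope, rose from 24.7, 32.2 and 37.7 CPM to 55.9, 62.3 and 68.3 CPM (log2 fold change 0.98, SE 0.179, edgeR adjusted p = 0.0478). In each of these 3 genes the libraries of the genotypes did not overlap, but none was called without any one library other than wild-type replicate 1 (edgeR adjusted p from 0.0625 to 0.255) or with the Y-linked covariate (0.285, 0.691 and 0.410). No gene passed among 13 of N-glycan trimming and branching, 12 of O-glycan cores, O-fucose and O-GlcNAc, 14 sialidases and lysosomal glycosidases, 9 selectin ligand carriers and sulfotransferases and 9 lectins. Of these 57 genes, 12 had an unadjusted edgeR p under 0.05, DESeq2 called 1 higher and 4 lower, and limma-voom called 0; over all tested genes these shares were 13.6% for the unadjusted p, 2.48% and 1.45% for DESeq2, and 1.14% and 0.33% for limma-voom. Without wild-type replicate 1, edgeR called 4 genes of these lists higher and 7 lower, where 4.6% and 4.44% of all tested genes were called. Their members with the smallest p were Man2a2 (log2 fold change 0.59), Mfng (-0.52), Gla (0.74), Cd24a (-1.11) and Siglecg (-2.34), at edgeR adjusted p of 0.168, 0.136, 0.202, 0.0757 and 0.0733. Without wild-type replicate 1 all 5 passed, at edgeR adjusted p of 0.0378, 0.0195, 0.0241, 0.00171 and 0.000377, with log2 fold changes of 0.44, -0.55, 0.51, -1.25 and -2.67. Siglecg and Cd24a are also expressed by B cells, whose markers were higher in wild-type replicates 2 and 3; the part of these cells in the difference was not tested.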

How the data were processed

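RNA was counted in 6 libraries of sorted mouse splenic Tregs, 3 per genotype. The authors deposited raw whole-number read counts for each Ensembl gene. Tools named in the submitters' processing notes are HISAT2, HTSeq, FastQC and DESeq2 (no versions), with GRCm38 as build; how HTSeq treated overlaps is not stated. Libraries were unstranded per the labels' protocols. Of 55573 identifiers, 55480 matched GENCODE M21 (GRCm38) for symbols, types, positions and exon lengths.

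The test was that of edgeR 4.0.16 under R 4.3.3 (filterByExpr, TMM, robust quasi-likelihood fit, genotype as the only term), with Benjamini-Hochberg adjustment over all 13347 genes tested and a threshold of 0.05. The code was tested on simulated counts. TPM used the union of exons. Alternatives tried were upper-quartile and RLE scaling, dropping the count filter, at least 1 CPM in 3 libraries, DESeq2 1.42.0, limma-voom (limma 3.58.1), the replicate block, B cell or Y-linked covariates and leaving out each library.

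Genes named were called members, the up to 3 members of each stem with the smallest p, the most abundant of each stem, and from each list up to 3 called genes or else the 1 with the smallest p; others were chosen after their values were seen. The members and lists were chosen with earlier results of these data known. Libraries of the same number deviated together from their genotype means (r = 0.364, 0.267 and 0.111, all above 0.1). However, Nfkb2-/- replicate 3 had a higher r, 0.251, with wild-type replicate 2. The labels do not say what a number marks, so whether the numbers pair libraries is not settled. The reported test leaves the number out, and the replicate block was fitted as an alternative. With that block B3gnt7 lost its call (edgeR adjusted p = 0.0514) and Galnt10 gained one. Ratios with 1 to 3 counts have exact 95% intervals, which cover counting error only. For a group with 0 counts a floor of 3 was set, and the counts of the other group were taken as exact.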

Additional observations from a re-analysis of the deposited data

How the results depend on the processing

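The number of members that rose was 2 as reported and under both other scalings, both other tools and the replicate block, 3 with no count filter, 6 with the B cell covariate and 0 with the Y-linked covariate, and from 0 to 3 without each library in turn. The number that fell was 1 as reported, under both scalings, with at least 1 CPM in 3 libraries and with the replicate block, 2 with no count filter, 12 with the B cell covariate, 3 in DESeq2, 0 in limma-voom and 0 with the Y-linked covariate, and from 0 to 3 without each library in turn. With the replicate block, Galnt10 and not B3gnt7 was the member that fell, and the block changed no other call of a member. Over all genes, the B cell covariate called 25%, the Y-linked covariate 0.0524% and DESeq2 3.94%. At an unadjusted p under 0.05, edgeR with the Y-linked covariate had 2 members higher and 4 lower, and limma-voom had 8 lower. Without Nfkb2-/- replicates 1, 2 and 3 there was no called member (0.109%, 0.0509% and 0.087% of all genes called), against 6, 4 and 3 higher and 8, 4 and 5 lower at an unadjusted p under 0.05. Without wild-type replicate 1, 3 rose and 3 fell, where 9.04% of all genes were called. Each fit without a library, that without wild-type replicate 1 included, has 2 libraries in a group, fewer to estimate the spread. The causes of these differing counts were not tested. With single libraries left out, the members' median log2 fold change lay between -0.19 and -0.076.

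Of 28 named members, 6 turned in direction in at least 1 fit, none of them called there or as reported. B3gntl1 was at 0.087 with the B cell covariate, B4galt1 at 0.20 with each covariate, B4galt3 at 0.0040 with the Y-linked covariate, and Gcnt2 at -0.0071 with no count filter and -0.020 in DESeq2. Without each library in turn St8sia4 ran from -0.22 to 0.23, B3gntl1 from -0.22 to 0.11, B4galt1 from -0.22 to 0.081, B4galt3 from -0.17 to 0.10, Gcnt2 from -0.47 to 0.88 and Fut11 from -0.39 to 0.081.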
